A study of Cucumis sativus with 4 samples.

Results

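In young cucumber fruits (Cucumis sativus), 126 of 17180 listed genes stood at least 3-fold apart between the 2 wild-type libraries. The members were chosen by 3 conditions on the deposited levels, which are given as CPM (a gene's reads scaled to a library of 1000000 reads). The larger wild-type value was at least 50 CPM, it was at least 3 times the smaller one, and the larger value of the transgenic line was at least 1 CPM. Of the members, 78 were higher in WT replicate 2 and 48 in WT replicate 1. The difference between the WT libraries therefore chose these genes and is described here without a test.

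Fruits were taken 4 days before anthesis, when a cucumber fruit is still the ovary of an unopened flower. WT is the inbred line R1407, with long fruits. OX-29 is R1407 transformed with CsFUL1 under the cauliflower mosaic virus 35S promoter, which is active in most plant tissues, and its fruits are short. Each line gave 2 libraries, called biological replicates. The number of plants or fruits behind a library is not stated, and since a single transformed line was sampled, what CsFUL1 does and what is peculiar to OX-29 cannot be told apart.

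CsFUL1 belongs to the MADS-box transcription factors and is related to FRUITFULL, a gene known from Arabidopsis for its part in the growth of the fruit wall. Before anthesis the ovary holds dividing cells of several tissues, such as epidermis, flesh, vascular strands and ovules. Replicate libraries of one line show how far a gene's level varies among fruit samples of the same genotype, and a line difference is read against that variation. In whole fruits, fewer cells of a type and less RNA per cell cannot be told apart.

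The libraries held 16326412 to 19824797 gene-assigned reads, and a single read was worth 0.0504 to 0.0613 CPM. None of the listed identifiers matched the RefSeq gene table at hand (0 of 17180), so members carry no gene names here, no roles are given, and neither the CsFUL1 level nor tissue markers were checked. Only 4 members are named, by their identifiers, and the others are given by rank, range or count. The libraries of a line differed beyond sampling noise, with a chi-square of reads over genes, divided by its degrees of freedom, of 90.8 in WT and 30.6 in OX-29.

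Among members, the ratio of the higher to the lower WT library ran from 3.00 to 66.2, with a median of 4.00. It was at least 5 in 36 members and at least 10 in 11. The lower WT library held at least 19 reads for every member. The exact 95% interval of the ratio, which covers counting error only, reached below the 3-fold limit for 24 members. Nothing is read from these intervals, since the same ratios chose the genes. Among the 6232 genes that met both level conditions the members made up 2.02%, and those higher in WT replicate 2 and replicate 1 made up 1.25% and 0.770%. These shares follow from the rule.

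The 3-fold limit lay within a continuous range of ratios. The gene just inside the 3-fold limit stood at 84.2 and 28.0 CPM in the WT libraries, a ratio of 3.00, and the gene just outside stood at 105 and 35.3 CPM, a ratio of 2.99. Ratios of 2.5 to 3 were found for 87 genes and ratios of 3 to 3.5 for 36. The member with the lowest larger WT value had 50.003 CPM, and the highest such value below the limit was 49.5 CPM. A further 23 genes met both WT conditions but had under 1 CPM in both OX-29 libraries, 11 of them higher in WT replicate 2 and 12 in WT replicate 1. The closest of these reached 0.957 CPM in OX-29, against 1.16 CPM for the lowest member.

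**Figure D1:**
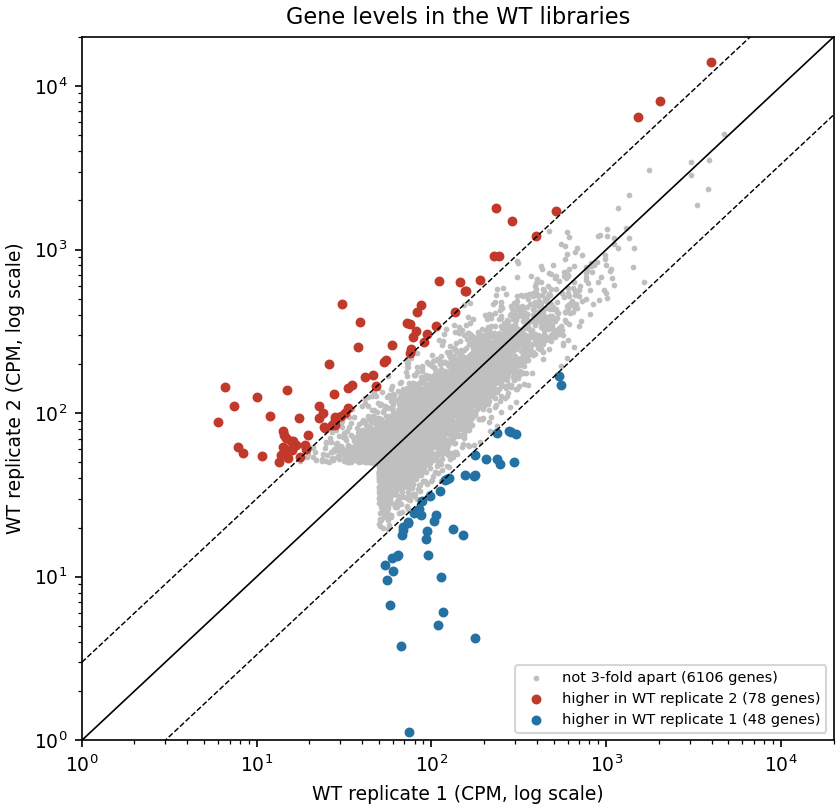
Level of each gene in WT replicate 1 (horizontal, CPM, log scale) and WT replicate 2 (vertical, CPM, log scale) for the 6232 genes that met the level conditions. Red points are the 78 members higher in WT replicate 2, blue points the 48 higher in WT replicate 1, the solid line marks equal levels and the dashed lines a 3-fold difference; the 3 red points at the top right are the members with the most reads.

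The members higher in WT replicate 2 ranged from 50.003 to 13938 CPM in that library, with a median of 141 CPM. In WT replicate 1 the same genes ranged from 6.003 to 3962 CPM, with a median of 30.6 CPM. Together they took 4.96% of the reads of WT replicate 2 and 1.25% of those of WT replicate 1, and 1.67% and 1.69% in OX-29 replicates 1 and 2.

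A few genes held most of this excess. The 3 genes that led WT replicate 2 by reads were all members, and they took 2.85% of its reads against 0.7503% in WT replicate 1. In OX-29 they took 0.218% and 0.246%. They accounted for 56.5% of the excess of the group in WT replicate 2. Without them the other members of the group took 2.11% of the reads of WT replicate 2, 0.495% of those of WT replicate 1, and 1.46% and 1.45% in OX-29. In summed reads OX-29 thus lay nearer WT replicate 1 with these 3 genes and nearer WT replicate 2 without them. Such sums rest on the genes with the most reads, among them a member at 2619 and 3486 CPM in OX-29. Gene by gene on the log2 scale, OX-29 lay nearer WT replicate 1 in 52 of the 78 members and nearer WT replicate 2 in 26. Genes below both WT libraries are nearer WT replicate 1 by construction.

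Csa2G024440 had the most reads of all members. It stood at 3962 CPM in WT replicate 1, 13938 CPM in WT replicate 2, 518 CPM in OX-29 replicate 1 and 875 CPM in OX-29 replicate 2. Both OX-29 libraries lay below both WT libraries, and the 3.52-fold gap within WT (exact 95% counting interval 3.49 to 3.55) exceeded the 1.69-fold gap within OX-29. Its log2 fold change between lines on the log2(CPM + 0.5) scale was -3.46 ± 0.70 (SE; adjusted p from limma 0.00911). Against WT replicate 1 alone the log2 fold change was -2.56, and against WT replicate 2 alone it was -4.37. Without OX-29 replicate 1 the log2 fold change was -3.09, and without OX-29 replicate 2 it was -3.84, so the fold stayed of like size. The call was lost in both of these fits, where only the WT pair entered the gene's spread. It was kept without either WT library, where only the OX-29 pair entered it.

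Csa3G040850 had the largest ratio among the genes higher in WT replicate 2. It stood at 6.61 CPM in WT replicate 1, 145 CPM in WT replicate 2, 6.64 CPM in OX-29 replicate 1 and 1.10 CPM in OX-29 replicate 2. WT replicate 2 was the one high library, and OX-29 replicate 1 was about level with WT replicate 1, so the lines overlapped. The gap was 22.001-fold within WT (exact 95% counting interval 18.4 to 26.4) and 6.02-fold within OX-29, where replicate 1 was higher. Its log2 fold change between lines of -3.25 ± 1.48 (SE) did not pass (limma adjusted p = 0.111). Taken against WT replicate 1 alone the log2 fold change was -1.07, and against WT replicate 2 alone, the library for which the gene was picked, it was -5.43.

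The members higher in WT replicate 1 ranged from 54.4 to 549 CPM in that library, with a median of 107 CPM, and from 1.13 to 168 CPM in WT replicate 2, with a median of 22.9 CPM. They took 0.698% of the reads of WT replicate 1 and 0.163% of those of WT replicate 2. In OX-29 replicates 1 and 2 they took 0.386% and 0.478%, between the WT shares. As sums, these shares rest on the genes with the most reads. The medians in OX-29 replicates 1 and 2 were 11.9 and 13.9 CPM, below both WT medians. The excess of WT replicate 1 thus involved fewer genes and a smaller share of reads than that of WT replicate 2.

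Csa4G295440 had the highest level of this group in WT replicate 1, though not the most reads over all libraries. It stood at 549 CPM in WT replicate 1, 148 CPM in WT replicate 2, 107 CPM in OX-29 replicate 1 and 323 CPM in OX-29 replicate 2. The lines overlapped, and the library pairs ran in opposite directions by replicate number, with replicate 1 higher in WT (3.72-fold, exact 95% counting interval 3.56 to 3.88) and replicate 2 higher in OX-29 (3.03-fold). Its log2 fold change between lines was -0.62 ± 0.76 (SE) and did not pass (limma adjusted p = 0.518).

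Csa2G176190 had the largest ratio of any member. It stood at 74.7 CPM in WT replicate 1, 1.13 CPM in WT replicate 2, 2.63 CPM in OX-29 replicate 1 and 9.62 CPM in OX-29 replicate 2. The ratio of 66.2 rests on 1480 and 19 reads (exact 95% counting interval 42.3 to 110), and both OX-29 libraries lay inside the WT range. Between lines the log2 fold change was -0.97 ± 1.75 (SE), which did not pass (limma adjusted p = 0.656). Its sign depended on the WT library, at -3.74 against WT replicate 1 alone and 1.79 against WT replicate 2 alone, which follows from its choice by the WT ratio.

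**Figure D2:**
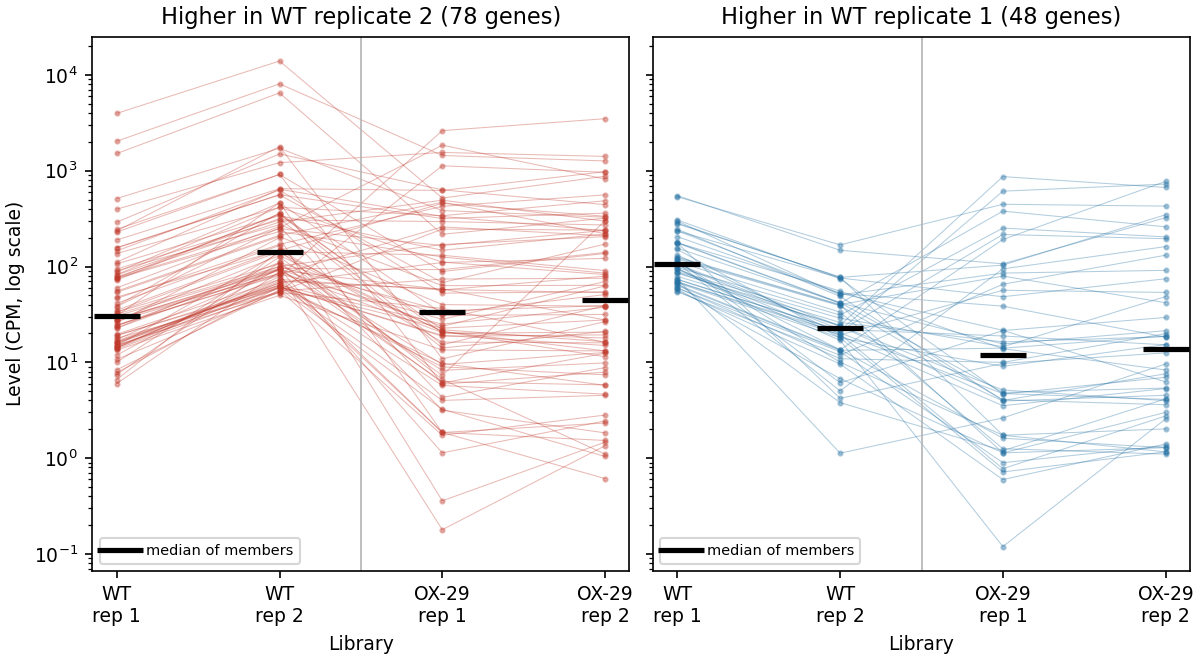
Level of each member (CPM, log scale) in the 4 libraries, with 1 line per gene and black bars for the median over members; left, the 78 members higher in WT replicate 2, and right, the 48 higher in WT replicate 1. In WT the medians are 30.6 and 141 CPM on the left and 107 and 22.9 CPM on the right, while in OX-29 they are 33.4 and 45.0 CPM on the left and 11.9 and 13.9 CPM on the right.

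The OX-29 pair was not used by the rule except through its larger value, so it shows how the same genes varied in another genotype. At least a 2-fold difference between the OX-29 libraries was found for 31 of the 126 members, 24.6%, whereas 5.41% of all 15837 genes with a larger OX-29 value of at least 1 CPM were that far apart. Among the 6106 other genes that met the level conditions the share was 2.19%. At 3-fold the shares were 11.9% of members (15 genes), 1.64% of all such genes and 0.540% of the other genes at these levels. With 1 library on each side there is no test, and these shares are descriptions of the 4 libraries.

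Counting noise is larger for genes with few reads, and members were often low in OX-29. At a mean OX-29 level of under 10 CPM, 14 of 40 members were at least 2-fold apart, 35.0%, against 9.23% of the other genes. At 10 to 100 CPM it was 10 of 46 members, 21.7%, against 1.98%. At 100 CPM or more it was 7 of 40 members, 17.5%, against 1.31%. The members' share was the larger figure in each class, untested as before.

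The share was larger at each larger class of WT ratio, on both sides of the 3-fold limit. It was 1.54% of the 4805 genes with a WT ratio under 1.5, 3.59% of 1003 genes at 1.5 to 2, 8.05% of 298 genes at 2 to 3, 20.6% of 63 members at 3 to 4 and 28.6% of 63 members at 4 or more. Among genes with a mean OX-29 level of at least 10 CPM the shares were 1.23%, 3.27%, 5.46%, 17.0% and 23.1% in the same order. The last of these rests on 9 of 39 genes and the one before it on 8 of 47.

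**Figure D3:**
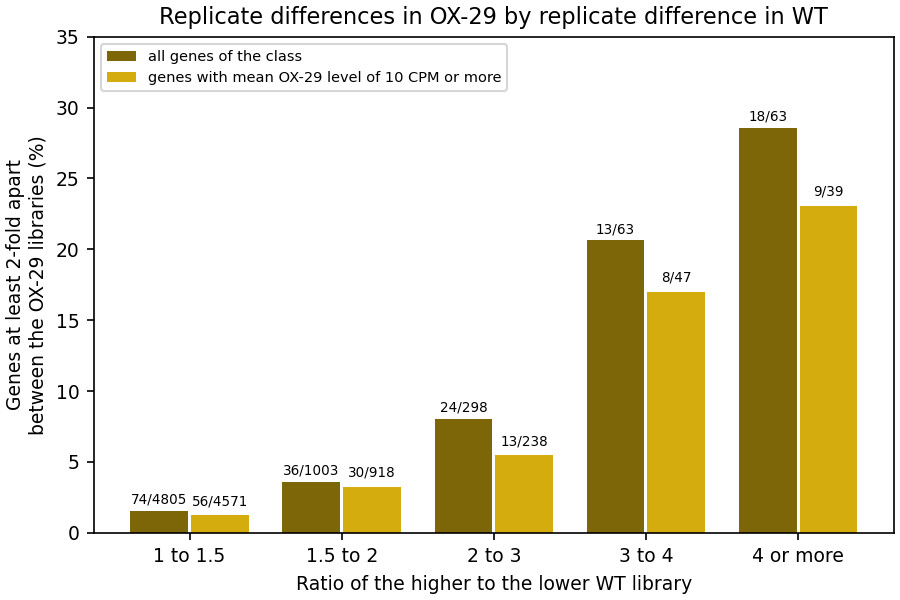
Percentage of genes at least 2-fold apart between the OX-29 libraries (vertical) by the ratio of the higher to the lower WT library (horizontal), for the 6232 genes that met the level conditions; dark bars show all genes of a class, light bars those with a mean OX-29 level of at least 10 CPM, and the numbers are genes apart over genes in the class. The dark bars go from 1.54% at ratios under 1.5 to 28.6% at ratios of 4 or more.

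Replicate numbers carry no pairing in the labels, and the members' higher replicate in WT did not match that in OX-29 in a fixed way. Of the 78 members higher in WT replicate 2, 42 were higher in OX-29 replicate 2, 53.8%, beside 48.0% of all genes with at least 1 CPM in OX-29 and 54.7% of the other genes at these levels. Of the 48 members higher in WT replicate 1, only 17 were higher in OX-29 replicate 1, since 31 were higher in OX-29 replicate 2. Where the OX-29 libraries were at least 2-fold apart, replicate 2 was the higher in 11 of 18 members of the first group and in 11 of 13 of the second. For all genes, 2.19% were at least 2-fold higher in OX-29 replicate 2 and 3.21% in OX-29 replicate 1, whereas among the other genes at these levels 71 were so in replicate 2 and 63 in replicate 1. Over the 126 members, the replicate 2 minus replicate 1 log2 differences of WT and OX-29 had a Pearson correlation of -0.17 and a Spearman correlation of -0.21, as a description of genes that share their libraries.

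The rule turned around, with at least 50 CPM and a 3-fold gap in OX-29 and at least 1 CPM in WT, gave 34 genes. Of these, 4 were also members, 11.8% of the 34 genes and 3.17% of the members. In 3 of the 4, including Csa4G295440, WT replicate 1 and OX-29 replicate 2 were the higher libraries. Another of these had 284 and 77.0 CPM in WT replicates 1 and 2 and 103 and 347 CPM in OX-29 replicates 1 and 2, and the last of the 3 had 95.9 and 13.5 CPM in WT and 192 and 773 CPM in OX-29. The remaining gene was higher in replicate 2 of both lines, at 10.0 and 126 CPM in WT and 7.30 and 300.4 CPM in OX-29. That gene had the widest OX-29 gap of all members, 41.2-fold, and its lines overlapped.

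Between lines, 49 members fell in OX-29, 13 rose and 64 did not pass, by limma on the log2(CPM + 0.5) scale with an adjusted p under 0.05 (Benjamini-Hochberg, 16982 genes). Falls made up 38.9% of the members and rises 10.3%, beside 38.4% and 18.6% of all genes tested, and calls in either direction made up 49.2% beside 57.0%. With DESeq2 on recovered reads the order of the last shares turned around, at 65.1% of the members beside 56.9% of all genes (27.2% higher and 29.7% lower). The share of falls in the limma test was near that of all genes. The rule picks genes with a wide WT spread, which enters the standard error of this test, so the median standard error of the members was 0.66 against 0.20 for the other genes at these levels. The smallest log2 fold change that passed was 1.91 in size among members and 0.46 among the other genes. Of the 64 members that did not pass, 28 had a log2 fold change of at least 1 in size.

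The median log2 fold change was -1.41 over the members and -0.38 over all genes tested. Median-of-ratios scaling, which applies 1 factor per library, moved the median of all tested genes to -0.02 and that of the members to -1.04, with 42 falls and 16 rises among the members. The falls were 33.3% of the members, beside 4917 of 16960 genes tested, and the rises 12.7%, beside 27.4%; calls in either direction were 46.0% beside 56.4%. On the deposited scale the members higher in WT replicate 1 gave 22 falls and 5 rises among 48, and those higher in WT replicate 2 gave 27 falls and 8 rises among 78. Whether these groups differ was not tested.

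Some members were low in OX-29. In 25 members, 19.8%, both OX-29 libraries were under 5 CPM, beside 2.69% of the other genes at these levels. Of the 25, 24 fell and 1 did not pass, and all 164 of the other genes so placed fell. With at least 50 CPM in a WT library and under 5 CPM in OX-29, a fall is nearly fixed in advance. Nothing is read from these calls. The largest fall among members was in a gene at 244 and 913 CPM in WT replicates 1 and 2 and at 5.92 and 7.90 CPM in OX-29 replicates 1 and 2, a log2 fold change of -6.01 ± 0.60 (SE; adjusted p from limma 0.000986). Among genes higher in WT replicate 1, the largest fall was from 279 and 77.6 CPM in WT to 1.73 and 2.02 CPM in OX-29, a log2 fold change of -5.96 ± 0.59 (SE; adjusted p from limma 0.000956). In both genes the gap between lines was larger than the gap within WT.

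The rises were fewer. The largest was in a gene at 14.2 and 78.2 CPM in WT replicates 1 and 2 and at 2619 and 3486 CPM in OX-29, where its log2 fold change was 6.47 ± 0.76 (SE; adjusted p from limma 0.00156). Among genes higher in WT replicate 1, the largest rise was from 78.9 and 24.4 CPM in WT to 867 and 668 CPM in OX-29 (log2 fold change 4.10 ± 0.54 SE). The gap within OX-29 was 1.33-fold in the former gene and 1.30-fold in the latter.

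The position of OX-29 relative to the WT libraries varied. Both OX-29 libraries lay below both WT libraries in 62 members, 49.2%, beside 52.2% of all genes tested, and above both in 20 members, 15.9%, beside 29.5%. In 28 members, 22.2%, both OX-29 libraries lay inside the WT range, beside 6.68% of all genes, and none of these passed the limma test. A wide WT range makes such a position more likely, so the share inside follows in part from the rule. In that position the line difference is smaller than the WT gap, so the absence of calls follows largely from the position. None of the 416 other genes at these levels so placed passed either. With median-of-ratios scaling 59 members lay below, 46.8% beside 41.5% of all genes, 27 lay above, 21.4% beside 40.0%, and 25 lay inside, 19.8% beside 6.25%. Whether the members' share below was under or over that of all genes therefore depended on the scaling. Both OX-29 libraries lay at least 3-fold beyond the nearer WT library in 36 of the members below, 28.6% of all members, and in 6 of those above, 4.76%. These shares were 18.4% and 5.54% of all genes tested, and 15.8% and 2.42% of the other genes at these levels.

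Beside the 28 genes inside the WT range, 16 had OX-29 libraries on both sides of a WT value, so the lines overlapped in 44 members. OX-29 lay nearer the lower WT library than the higher one, on the log2 scale, in 27 of these 44 and in 89 of all 126 members, 70.6%. For the other genes at these levels that share was 63.7%. A gene below both WT libraries is nearer the lower one by construction.

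For part of the members the WT library decided the direction of the line difference. The sign of the log2 fold change was not the same against WT replicate 1 and against WT replicate 2 in 36 members, 28.6%, beside 11.6% of all genes tested. Members higher in WT replicate 2 had a median log2 fold change of 0.13 against WT replicate 1 and -2.10 against WT replicate 2. Members higher in WT replicate 1 had medians of -3.68 and -0.60 against the same libraries. The direction of these shifts follows from the rule.

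The calls moved in the same way. With WT replicate 1 left out, 71 members fell and 22 rose, 73.8% of the members beside 54.8% of all genes tested, of which 35.4% were lower and 19.4% higher. With WT replicate 2 left out, 57 fell and 30 rose, 69.0% beside 55.0%, of which 37.1% were lower and 18.0% higher. The remaining WT library is then assumed to vary like the OX-29 libraries, and the wide WT spread that the rule selects no longer enters the test, so nothing is read from these shares. Among members higher in WT replicate 2, rises went from 8 to 26 without WT replicate 2 and falls from 27 to 51 without WT replicate 1. Among members higher in WT replicate 1, falls went from 22 to 34 without WT replicate 2 and rises from 5 to 13 without WT replicate 1. Leaving out OX-29 replicate 1 gave 8 rises and 34 falls, 33.3% of the members beside 34.2% of all genes, of which 9.45% were higher and 24.7% lower. Leaving out OX-29 replicate 2 called 36.5% of the members beside 34.9% of all genes, of which 10.1% were higher and 24.9% lower. None of the 62 members that passed with all libraries changed sign when any library was left out. A member passes only with a fold change that is large against its spread, so this follows largely from the call. Of the other members, 19 changed sign without WT replicate 1 and 17 without WT replicate 2. Without OX-29 replicate 1 it was 8, and without OX-29 replicate 2 it was 4.

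**Figure D4:**
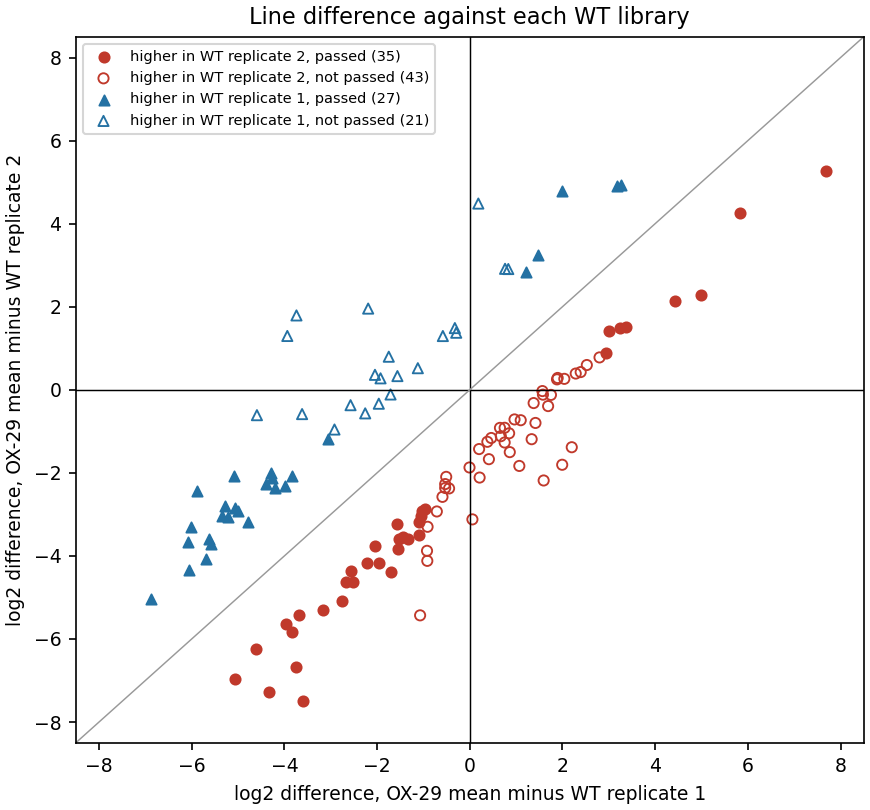
Log2 difference of the OX-29 mean from WT replicate 1 (horizontal) and from WT replicate 2 (vertical) for the 126 members, on the log2(CPM + 0.5) scale. Filled symbols passed the limma test between lines and open symbols did not; red circles are members higher in WT replicate 2, blue triangles those higher in WT replicate 1, and the 36 points in the upper left and lower right fields change sign with the WT library.

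The members were found on all chromosomes, read from the digit in each identifier as in the cucumber naming scheme. They made up 1.14% (chromosome 7, 7 members) to 2.76% (chromosome 6, 29 members) of the genes that met the level conditions there. Most members on chromosome 2 were higher in WT replicate 2, 14 of 19, whereas on chromosome 7 it was 2 of 7. These counts are small and were not tested.

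Some members were neighbours. Of the 125 members placed on a chromosome, 9 had another member next to them in identifier order, 7.20%, against 1.30% of the other genes at these levels. They formed 5 successive pairs, and the same WT replicate was the higher one in 4 of the pairs. Neighbours can be near-identical copies, and how the authors counted reads shared by such copies is not given in the sources used here, so values of neighbouring members are uncertain to that extent.

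On chromosome 2, 3 successive listed genes were all higher in WT replicate 2 and all fell in OX-29. In identifier order they stood at 81.6, 1511 and 3962 CPM in WT replicate 1 and at 316, 6476 and 13938 CPM in WT replicate 2, ratios of 3.88, 4.29 and 3.52. In OX-29 they stood at 14.1, 217 and 518 CPM in replicate 1 and at 21.0, 319.5 and 875 CPM in replicate 2. The last of them is Csa2G024440, and the log2 fold changes between lines were -3.19, -3.57 and -3.46. The ratios within WT, the ratios within OX-29 (1.49, 1.47 and 1.69) and the line differences were thus much alike in the 3 genes.

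A second group on chromosome 2, of 3 members within 4 listed genes, was mixed. The first was the gene with the largest rise among members. The second stood at 73.1 and 21.6 CPM in WT replicates 1 and 2 and at 611 and 725 CPM in OX-29, and it rose as well, with a log2 fold change of 4.05 ± 0.55 (SE; adjusted p from limma 0.00242). The last, at 59.8 and 262 CPM in WT and 4.31 and 8.82 CPM in OX-29, fell by a log2 fold change of -4.23 ± 0.72 (SE; adjusted p from limma 0.00512). The first and second genes rose together in OX-29 although they were high in opposite WT libraries.

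On chromosome 4, 3 members lay within 15 listed genes. All were higher in WT replicate 2, with ratios of 3.19, 4.00 and 3.73, and all fell in OX-29. The middle gene stood at 229 and 914 CPM in WT replicates 1 and 2 and at 88.7 and 137 CPM in OX-29, a log2 fold change of -2.05 ± 0.65 (SE; adjusted p from limma 0.0400). The last gene is the one with the largest fall among members, a log2 fold change of -6.01. These 3 members thus had like ratios within WT and line differences of unlike size.

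**Figure D5:**
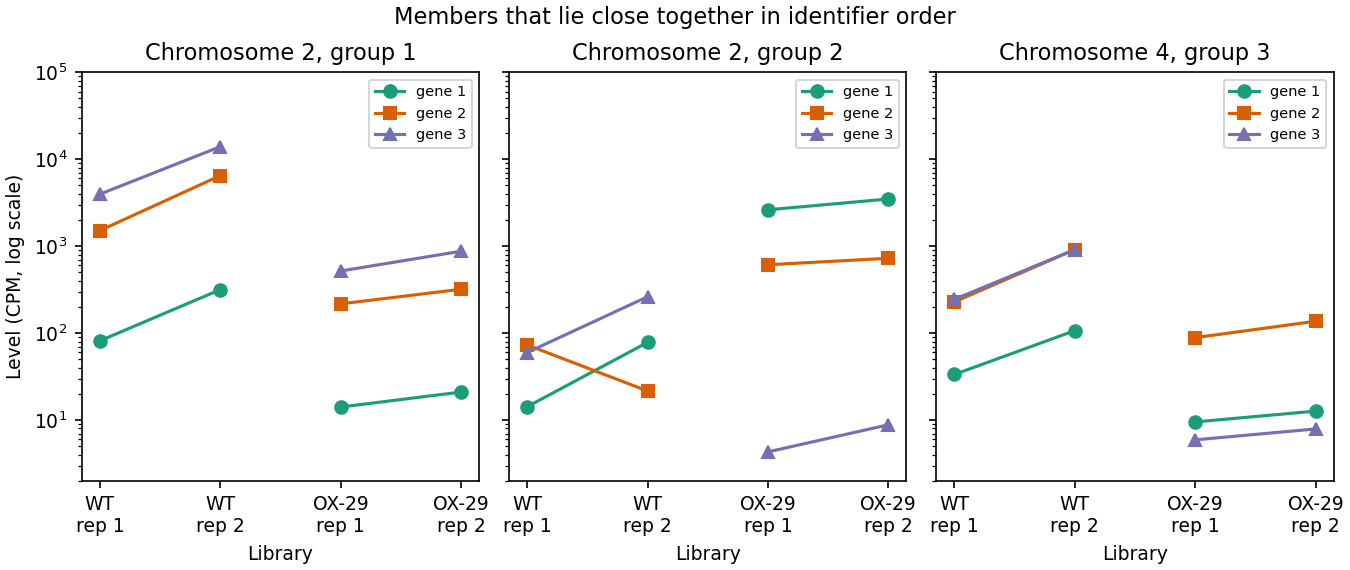
Level (CPM, log scale) in each library of the members of 3 groups, in which successive members lie within 10 listed genes of each other. The groups span 3, 4 and 15 listed genes. Genes are numbered in identifier order, and lines join the libraries of a line. In the left and right panels all 3 genes are higher in WT replicate 2 and lower in OX-29; in the middle panel gene 2 is higher in WT replicate 1, and genes 1 and 2 are higher in OX-29.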

How the data were processed

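Polyadenylated RNA of young fruits was sequenced in 2 libraries per line, with paired-end reads on an Illumina instrument, per the labels' protocols. The submitters' processing notes name TopHat (alignment of spliced reads) and HTSeq (counting of reads per gene). Versions, settings, strand use, genome build and annotation were not given in the sources used here. The deposited values are CPM, computed by the authors over the 17180 listed genes. All values were whole multiples of what 1 read is worth (100% within 0.001 reads), so whole reads were recovered. Per-sample columns left out numbered 0.

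The line comparison used limma 3.58.1 in R 4.3.3 on log2(CPM + 0.5), with a mean-variance trend in eBayes and no term but the line. Genes averaging 1 CPM or more were tested, and p-values were adjusted by Benjamini-Hochberg over these 16982 genes. All members passed that filter, with a smallest mean of 16.8 CPM. Alternatives were other pseudocounts and filters, median-of-ratios scaling, a replicate block, robust variance, each library left out, an adjusted p under 0.01, edgeR 4.0.16 and DESeq2 1.42.0 on the recovered reads (edgeR called 9390 genes and DESeq2 9659 in all, against 9677 with limma), and other limits of the membership rule. With 2 libraries per line, p-values measure only the spread between these libraries, which may be in part technical. Intervals cover counting error only.

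The members were chosen, and the rules set, with earlier results of these data known. The named genes are, for each WT replicate, the member with the highest larger WT value and the member with the largest ratio.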

Additional observations from a re-analysis of the deposited data

How the results depend on the processing

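The total of 62 members that passed between lines moved by more than 1.5 times at an adjusted p under 0.01. That limit gave 34 calls, 4 higher and 30 lower. The share of all genes at that limit is not given here, so nothing about the members is read from the drop. DESeq2 gave 82 calls with 22 higher, 65.1% of the members beside 56.9% of all genes. With one library left out at a time, the members called ranged from 42 to 93, of which 8 to 30 were rises and 34 to 71 falls. The labels give no pairing by replicate number. The replicate differences of the lines had a correlation of -0.0201 over tested genes, which cannot decide whether libraries were paired. With a replicate block 80 members were called, 19 rises and 61 falls, 63.5% of the members beside 55.5% of all genes. The members' share of calls was thus below that of all genes with limma as reported. It was above it with DESeq2, with the block, without either WT library and without OX-29 replicate 2. The remaining settings were other pseudocounts and filters, median-of-ratios scaling, robust variance and edgeR, and they gave 52 to 62 calls. Those were 41.3% to 49.2% of the members beside 54.8% to 58.3% of all genes.

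The number of members followed the limits of the rule. A WT ratio of at least 2 gave 424 genes (220 higher in WT replicate 2 and 204 in WT replicate 1), at least 4 gave 63 (37 and 26), a larger WT value of at least 20 CPM gave 223 (125 and 98) and of at least 100 CPM gave 72 (46 and 26). Median-of-ratios scaling gave 126 genes, 117 of them members. Of the 126 members, 52 were at least 1.5-fold and 15 at least 3-fold apart in OX-29, and with a WT ratio of at least 4 it was 18 at 2-fold. The number of members and the OX-29 pair cannot be computed with a library left out.

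Csa4G295440 reversed without OX-29 replicate 1 (log2 fold change 0.18) and without WT replicate 1 (0.33), and Csa2G176190 without WT replicate 1 (1.79); without WT replicate 2 they stood at -1.56 and -3.74. The causes were not tested. At this depth 3 reads are worth 0.151 to 0.184 CPM, and the exact 95% counting interval of the WT ratio reached below 3 for 24 members.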
